A study of Ovis aries with 36 samples.

Results

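The 3 sheep of the N22W arm gave a biopsy of the infraspinatus at the time of tendon repair (TR) and another before the tendon was released (PRE), and the 6 libraries from these biopsies, of 36 in the series, are described here. They were chosen by their titles and paired by animal (2913, 2914 and 2915). At TR the tendon had been detached for 16 weeks, and over those weeks the animals had received 150 mg of nandrolone decanoate weekly. At PRE the same muscles had an attached tendon and had seen no drug. The animals used as a comparison had the same release, and their labels and the design text name no drug before repair: 3 CONTROL animals (2901, 2902 and 2903) and 3 N6W animals (2907, 2908 and 2909), whose nandrolone began at repair. All were female Swiss Alpine sheep aged 2 years, with a body weight of 47.1 ± 0.8 kg in N22W, 45.3 ± 1.9 kg in CONTROL and 48.4 ± 1.5 kg in N6W, as the labels give it. The design had 18 animals, 6 per arm, of which 3 per arm are analysed here. No library of the muscle of the other side at TR is among those used here, so release, drug and the 16 weeks that passed cannot be told apart within N22W.

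The infraspinatus is a muscle of the rotator cuff, which holds the head of the humerus in the shoulder joint. A muscle whose tendon is torn or cut retracts, its fibres shorten and thin, and fat and connective tissue accumulate between them, a course for which the sheep is a common model. Nandrolone is an anabolic steroid that binds the androgen receptor, a ligand-activated transcription factor, and its decanoate ester is released slowly from the site of injection.

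Values are reads per gene divided by a size factor of the library, as judged from their steps, and differences are on the log2(value + 1) scale, where changes of low genes lie closer to 0. Ensembl identifiers stand for the genes, as the files hold no names and none of the 25197 identifiers matched the gene name table available. The tissue label could therefore not be checked against marker genes, and gene lists of pathways could not be counted. The 6 libraries held between 18571824 reads (2915 at TR) and 43065773 reads (2913 at TR). The most abundant gene, the same in all 36 libraries, took 24.1 to 32.9% of the values in the 6. The 12 libraries of PRE and TR in N22W and CONTROL were scaled apart from the other 24, as judged from size factors with a geometric mean of 1.00 in each set. In addition, 499 genes lay over 8-fold higher in each of the 12 than in each of the 24. Their share of all values was 8.34 to 11.0% in the 6 libraries described here and 0.0276 to 0.0538% in the 24. A size factor acts on all genes of a library alike, so this is a difference besides the scaling, and its cause was not tested. PRE and TR of N22W are on the same side of this divide.

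From PRE to TR the transcripts of the N22W muscles changed widely, with large rises in fewer genes and smaller falls in more. By limma, at a false discovery rate of 0.05, 863 of 16417 genes tested rose (5.26%) and 1901 fell (11.6%), 2764 in all (16.8%). The genes that rose had a median log2 change of 1.21 with quartiles of 0.75 and 1.86, and 511 of them (59.2%) rose at least 2-fold, 178 at least 4-fold and 17 at least 16-fold. The genes that fell had a median of −0.59 with quartiles of −0.79 and −0.46. Of these, 236 (12.4%) fell at least 2-fold, 21 at least 4-fold and 0 at least 16-fold. The median over all genes tested was −0.04, and 0.02 after TMM scaling.

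Of the genes called, 31.2% rose. This share was 39.5% in limma after TMM scaling (912 rose and 1395 fell), 44.0% in DESeq2 (1286 and 1635) and 48.7% in edgeR (1231 and 1297), both run on the recovered reads. In edgeR rises and falls were thus close to equal in number. The number called was 711 genes (333 higher and 378 lower) with the spread taken from the 6 libraries alone, and 381 without animal 2913 and 458 without animal 2915. Without the animal term, 1438 genes passed.

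The same 3 animals chose the genes, so their agreement is in part a result of the choice. The direction was shared by all 3 in 840 of the genes that rose and in 1853 of those that fell. In 751 and 1648 of them the TR and PRE values did not overlap, which was also true of 11.3% (TR above) and 18.2% (TR below) of all genes tested. The 499 genes that set the 12 libraries apart gave 237 of the genes tested, and 1 of these rose and 8 fell. Over all genes tested, 5.26% rose and 11.6% fell. In bulk tissue, fewer cells of a type and less RNA per cell cannot be told apart, and this holds for each change below.

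**Figure D1:**
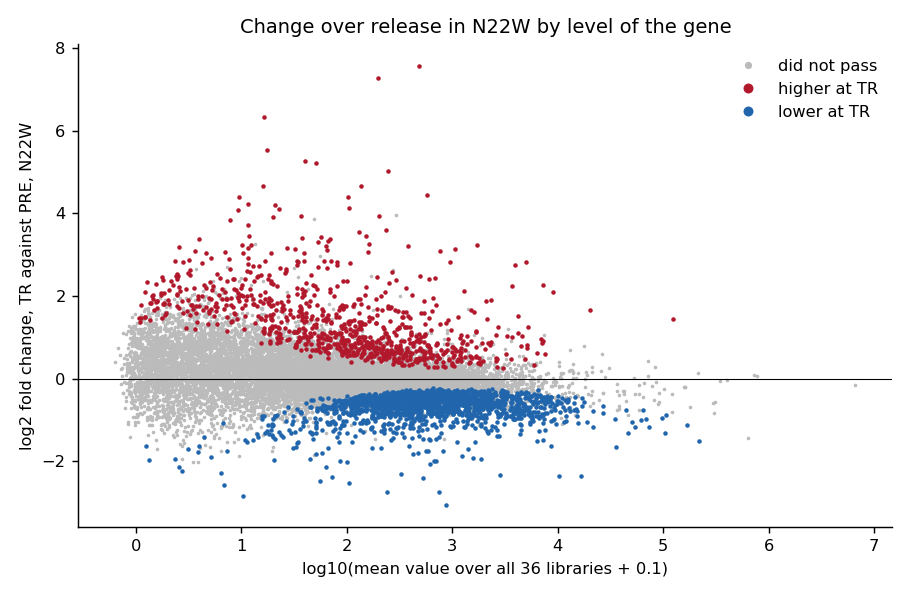
Log2 change from PRE to TR in N22W (vertical axis) against the log10 of the mean value over all libraries plus 0.1 (horizontal axis), 1 point per gene tested, with the genes that passed the test in colour. The 863 genes that rose (red) reach up to 7.56, whereas the 1901 that fell (blue) reach down to −3.06 and lie further to the right.

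Which genes rose and which fell went with how abundant they were. Among 3228 genes with a mean value under 10 over all libraries, 133 rose (4.12%) and 14 fell (0.434%), and the median log2 change was 0.30. Among 4838 genes from 10 to 100, 309 rose and 150 fell, with a median of 0.09. Genes with more reads gave more falls than rises: 334 rose and 1125 fell of 6587 genes from 100 to 1000 (median −0.14), and 85 rose and 564 fell of 1613 genes from 1000 to 10000 (median −0.26). Among the 151 genes at 10000 or above, 2 rose (1.32%) and 48 fell (31.8%), with a median of −0.42. The count of calls in a class also depends on how well its genes can be measured, and the median of the lowest class is drawn towards 0 by the pseudocount.

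The order of the medians was the same after TMM scaling, at 0.32, 0.14, −0.08, −0.21 and −0.36 from the lowest class to the highest. In the highest class the median was −0.57 in 2913, −0.22 in 2914 and −0.55 in 2915, so the median lay below 0 in each N22W animal. CONTROL, without drug, had medians of 0.20, 0.04, −0.12, −0.18 and −0.42 in the 5 classes, and N6W of 0.30, 0.12, −0.04, −0.07 and −0.12. By animal, the median of the highest class lay below that of the lowest in 8 of the 9 animals. Animal 2907 of N6W went the other way, with medians of 0, −0.07, −0.03, 0.07 and 0.18 from the lowest class to the highest. The difference between the arms was not tested.

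**Figure D2:**
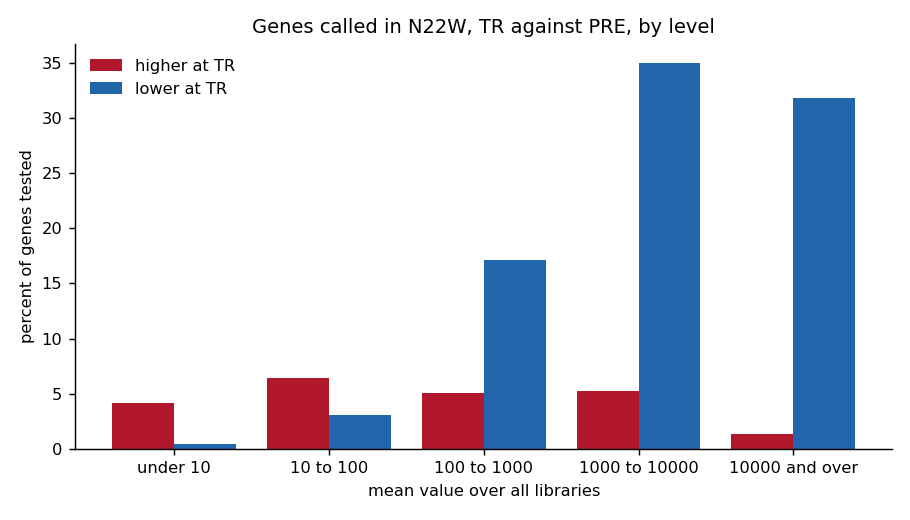
Share of the genes tested that passed the test in N22W (vertical axis, percent) in 5 classes of mean value over all libraries (horizontal axis), with genes higher at TR in red and genes lower at TR in blue. The share that fell is 0.434% in the lowest class, 35.0% from 1000 to 10000 and 31.8% at 10000 or above, while the share that rose stays between 1.32% and 6.39%.

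More genes could be seen at TR. Each library was brought to an equal depth of 11879736 reads, that of the PRE library of 2909, by 1 random draw. Genes with at least 1 read then numbered 16921, 16516 and 16872 at TR in 2913, 2914 and 2915, against 16034, 16085 and 15919 at PRE. All 3 TR libraries lay above all 3 PRE libraries. CONTROL gave 16490, 16740 and 16837 at TR against 16043, 15871 and 16360 at PRE (2901, 2902, 2903), and N6W 15354, 16067 and 16607 against 15672, 15645 and 15433 (2907, 2908, 2909). The rise in the number of genes was thus seen in 3 of 3 N22W animals, 3 of 3 CONTROL animals and 2 of 3 N6W animals.

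The number of genes that together held 90% of the summed values was 2264, 1854 and 2489 at TR in 2913, 2914 and 2915, against 1784, 1889 and 1953 at PRE. It was higher at TR in 2913 and 2915 and lower in 2914. The 100 most abundant genes of a library held 67.6, 70.1 and 64.3% at TR and 70.1, 68.7 and 67.3% at PRE, so here too 2914 differed from the other two in direction.

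Full appearance or loss of a transcript was rare. ENSOARG00000019246 was the one gene at 0 reads in all 3 PRE libraries and at 10 or more in all 3 TR libraries of N22W. The same rule gave 0 genes in CONTROL and 0 in N6W, and 0 genes in any arm for the opposite direction. With a single read in each TR library as the criterion the counts were 111 in N22W, 112 in CONTROL and 121 in N6W. Seen in each PRE library and at 0 in each TR library were 10, 6 and 9 genes in the same order of arms. These counts depend on depth, which was not equalised for them.

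The gene with the largest rise was ENSOARG00000003744, at 1300, 512.3 and 2692 at TR and 4.213, 8.224 and 4.52 at PRE in 2913, 2914 and 2915. Each TR value lay above each PRE value by a wide margin. The means were 1501 ± 1104 at TR and 5.65 ± 2.23 at PRE (SD, n = 3 each), a log2 change of 7.56 (SE 0.87, limma adjusted p = 8.04e-05). It passed under each of the 14 alternatives run on the release of N22W. CONTROL had a log2 change of 4.72 (adjusted p = 0.0027), and that of N6W was 3.46 (adjusted p = 0.0184). The change in N22W exceeded that of the untreated animals by 3.47, which did not pass the test of the difference (limma adjusted p = 0.342), and the gene had been chosen for its size in N22W.

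The gene with the largest fall was ENSOARG00000014005, at 166.1, 607.1 and 246.4 at TR and 3050, 1464 and 3233 at PRE. The groups did not overlap, and 2914 had both the highest TR and the lowest PRE value. The means were 340 ± 235 at TR and 2582 ± 973 at PRE (SD, n = 3 each), and the log2 change was −3.06 (SE 0.42, limma adjusted p = 0.00041). This fall too passed under each of the 14 alternatives. CONTROL had a log2 change of −0.67 (adjusted p = 0.318), while N6W had −1.76 (adjusted p = 0.0141). Between N22W and the untreated animals the changes differed by −1.84, with a limma adjusted p of 0.282.

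ENSOARG00000004431 had the largest rise in mean value. It stood at 636600, 234200 and 72360 at TR and at 94530, 94100 and 59640 at PRE, which is 2.46, 0.741 and 0.291% of the summed values at TR and 0.279, 0.291 and 0.180% at PRE. The TR value of 2915 lay below the PRE values of the other animals, so the groups overlapped, although each animal was higher at TR. By mean value it ranked 11th of all genes at TR and 41st at PRE. The means were 314387 ± 290541 at TR and 82757 ± 20021 at PRE (SD, n = 3 each), and the log2 change was 1.45 (SE 0.45, limma adjusted p = 0.0284). The call was lost when 2913 was left out (0.80, adjusted p = 0.396) and when 2914 was (1.52, adjusted p = 0.0844). It was also lost in a fit with no animal term (limma adjusted p = 0.129) and in the 6 libraries alone (0.134). The same held in the 12 libraries scaled together (0.0994) and in the PRE and TR libraries of all arms (0.109). The untreated animals together had a log2 change of 0.98 (limma adjusted p = 0.0270), with 0.62 in CONTROL (0.399) and 1.33 in N6W (0.0697). N22W exceeded the untreated animals by 0.47, which did not pass (limma adjusted p = 0.886).

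ENSOARG00000000004 had the largest fall in mean value, at 218100, 408300 and 313500 at TR and 851100, 573300 and 584600 at PRE. The groups did not overlap. The means were 313300 ± 95100 at TR and 669667 ± 157227 at PRE (SD, n = 3 each), ranks 12 and 6, with a log2 change of −1.12 (SE 0.28, limma adjusted p = 0.0091). It is one of the 499 genes that set the 12 libraries apart, and its value in the 24 other libraries was 18.55 to 70.4. The fall also passed in the 18 PRE and TR libraries of all arms (limma adjusted p = 0.0310) and with no animal term (0.0260). It did not pass in the 12 libraries scaled together (0.192) or in the 6 libraries alone (0.339), where the gene is at its high level throughout. Without 2913 it was 0.250 (log2 change −0.69) and without 2915 it was 0.0604 (−1.23).

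**Figure D3:**
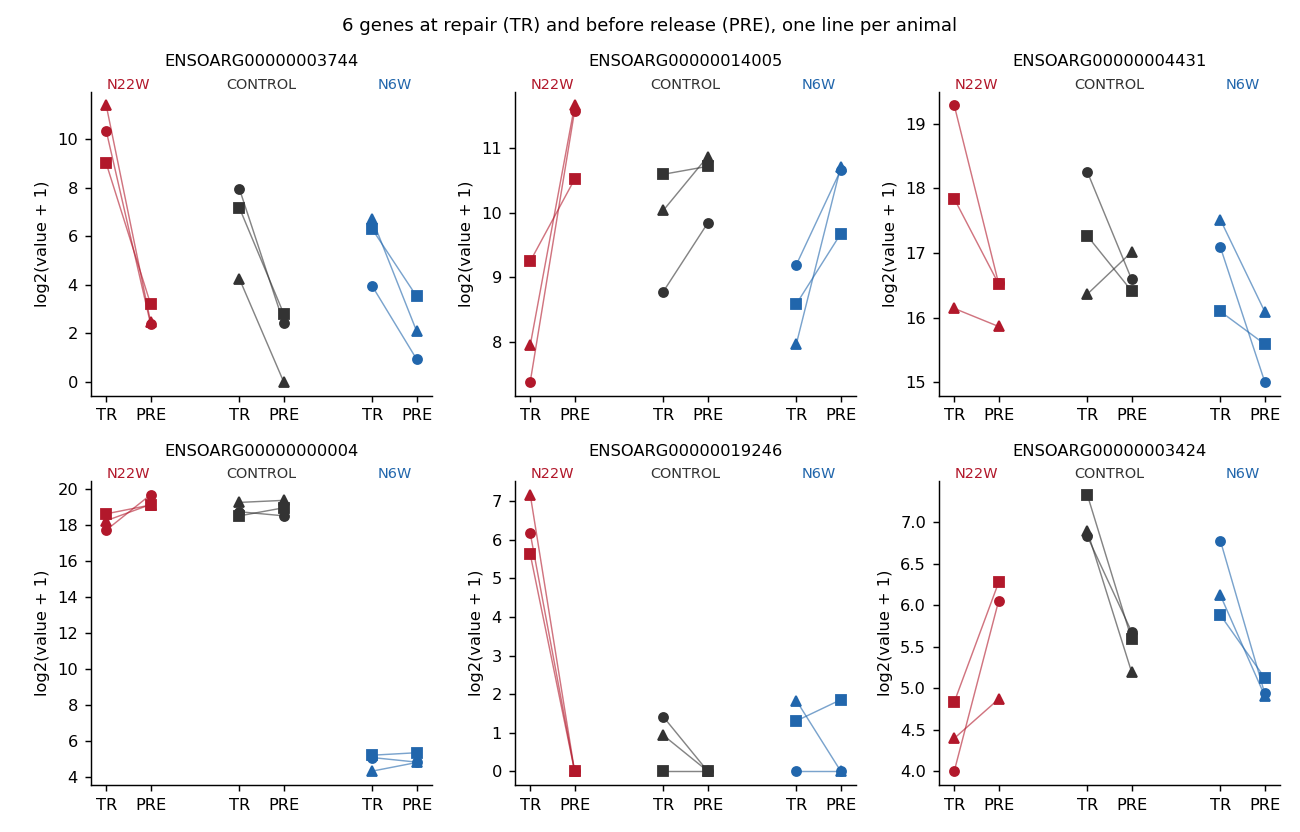
Values of the 6 genes named in the text (vertical axes, log2(value + 1), each with its own range) in TR and PRE of N22W, CONTROL and N6W, with 1 line per animal joining its 2 libraries. ENSOARG00000019246 is at 0 in all N22W PRE libraries and at 48.48 to 143.3 in the TR libraries, and ENSOARG00000003424 falls in N22W while it is higher at TR than at PRE in each animal of the other arms.

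Some of the release genes passed in each of several limma fits with other libraries or scaling. These fits did not include edgeR, DESeq2 or the fit with no animal term. The genes meant passed in the same direction in the fit on all libraries, in the 12 and in the 6 libraries alone, after TMM scaling and with each N22W animal left out. Of them, 48 rose, 40 of them at least 2-fold, with a median log2 change of 2.04 and a range of 0.68 to 7.56. The other 97 fell, 43 of them at least 2-fold, with a median of −0.97 and sizes of 0.66 to 3.06. The same genes had medians of 0.86 and −0.60 in CONTROL and 0.67 and −0.39 in N6W, where the median of all genes tested was −0.06 and 0.04.

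The 3 N22W animals differed in the size of the change. Over the 863 genes that rose, the median log2 change was 1.40 in 2913, 0.79 in 2914 and 1.10 in 2915, and over the 1901 that fell −0.73, −0.33 and −0.71. As these animals chose the genes, their medians are a description. Among 8899 genes with a mean of at least 100 over the PRE and TR libraries, 393 were at least 2-fold higher and 580 at least 2-fold lower at TR in 2913, and 290 and 438 in 2915. Animal 2914 had 121 and 86, fewer than any of the other 8 animals in either direction.

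The SD of the log2 changes over these 8899 genes measures the size of an animal's change without regard to which genes were called. It was 0.719 in 2913, 0.427 in 2914 and 0.608 in 2915. CONTROL animals had 0.544, 0.513 and 0.553 and N6W animals 0.493, 0.483 and 0.697. The mean was 0.585 ± 0.147 in N22W (SD, n = 3) and 0.547 ± 0.0783 in the 6 untreated animals (SD, n = 6), a difference of 0.0378. The difference was within the spread between animals (two-sided exact permutation test, p = 0.619, where the smallest possible for 3 against 6 is 0.0238). The range of the N22W animals covered that of all 6 untreated ones, with 2914 the lowest of the 9 and 2913 the highest.

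**Figure D4:**
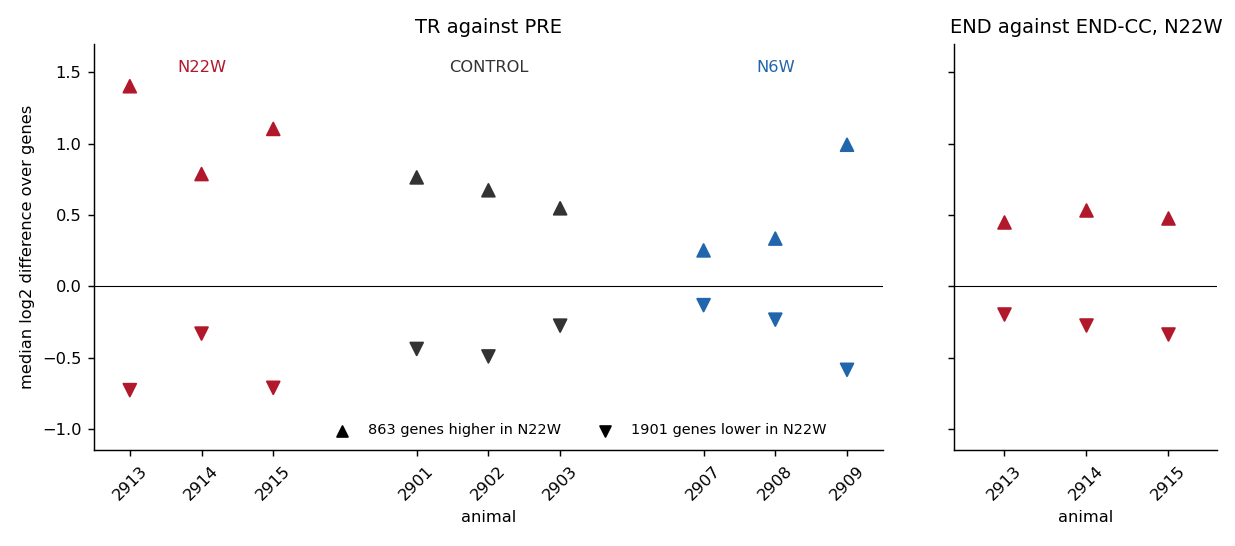
Median log2 difference per animal (vertical axis) over the 863 genes that rose and the 1901 that fell in N22W, for TR against PRE in N22W, CONTROL and N6W (left) and for END against END-CC in N22W (right). Upward triangles lie above 0 and downward triangles below 0 in each animal. Animal 2907 lies closest to 0 on the left, at 0.25 and −0.13.

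In the untreated animals the medians of these genes had the same directions, at different sizes. The genes that rose in N22W had a median log2 change of 0.68 in CONTROL and 0.52 in N6W, and those that fell −0.40 and −0.32. By animal, the medians were 0.76, 0.67 and 0.55 in CONTROL (2901, 2902, 2903) and 0.25, 0.33 and 0.99 in N6W (2907, 2908, 2909) for the genes that rose. For the genes that fell they were −0.44, −0.49 and −0.28 in CONTROL and −0.13, −0.23 and −0.59 in N6W. Medians in N22W are larger in part because N22W chose the genes. In 2909 the genes came nearest to their size in N22W, with 94.8% of the risen genes above 0 and 95.6% of the fallen genes below it, and in 2907 they were furthest from it, with 65.8% and 68.5%. Over all genes tested, 55.5% lay above 0 and 43.7% below it in 2909, and 45.8% and 51.9% in 2907.

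CONTROL by itself gave 691 genes that rose (4.21%) and 1152 that fell (7.02%), 1843 in all (11.2%), and N6W 618 (3.76%) and 528 (3.22%), 1146 in all (6.98%). N22W and CONTROL had 293 risen genes in both lists, 34.0% of the N22W list and 42.4% of the CONTROL list. They had 720 fallen genes in both, 37.9% and 62.5%, while 3 genes were called in opposite directions. With N6W, 185 risen genes were in both lists, 21.4% of the N22W and 29.9% of the N6W list, and 345 fallen genes, 18.1% and 65.3%. Here 4 genes were called in opposite directions. The lists share no library but use 1 estimate of the spread per gene.

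Across the 8899 genes, the log2 changes of 2913 and 2915 had a Pearson correlation of 0.66, those of 2913 and 2914 of 0.54, and those of 2914 and 2915 of 0.52. Between N22W and CONTROL animals it ran from 0.31 to 0.66, and between N22W and N6W animals from 0.17 (2913 and 2908) to 0.72 (2915 and 2909). The pairs within N22W thus lay inside the range of pairs across arms. These values describe genes of the same libraries, which are not independent replicates, and animals of N22W and CONTROL also share the scaling.

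**Figure D5:**
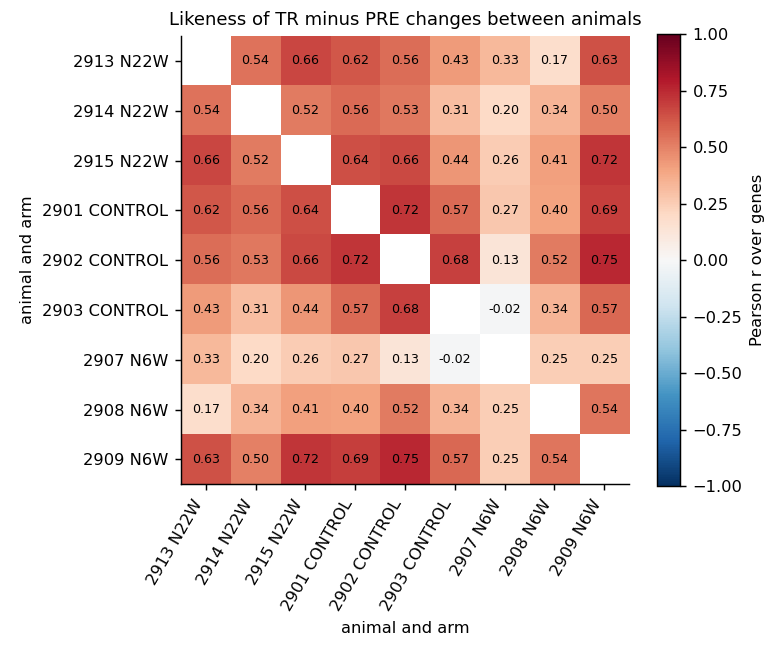
Pearson correlation of the log2 changes from PRE to TR between each pair of the 9 animals, across 8899 genes, with animals ordered N22W, CONTROL, N6W on both axes and the value printed in each cell. The N22W animals do not form a block of their own, and 2915 has its highest value, 0.72, with 2909 of N6W.

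Nandrolone during release was addressed by the difference between the change of the 3 N22W animals and that of the 6 untreated animals. Of the untreated animals, those of N6W have both PRE and TR in the other set of scaling, and those of CONTROL in the same set as N22W. Few genes passed: 4 with a higher change (0.0244%) and 5 with a lower change (0.0305%), 9 in all (0.0548%). The 4 genes with a higher change all rose in N22W, and 4 of the 5 with a lower change fell in N22W, while the other had a log2 change of −0.33 there (adjusted p = 0.244). Unadjusted limma p was under 0.05 in 1310 of the 16417 genes tested, where a share of 0.05 is expected with no difference at all. The count depended on the libraries used. It was 0 in the PRE and TR libraries alone (1094 at an unadjusted limma p under 0.05), where the differences themselves stay the same. Leaving out an animal also changes the differences. The count was 0 without 2913 (776 at an unadjusted limma p under 0.05, less than the share expected with no difference) and 27 without 2909. edgeR called 9 genes, 7 of them the same, and DESeq2 36, 8 of them the same.

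Against CONTROL alone, limma called 0 genes (0.0%), with 1090 of the 16417 genes tested at an unadjusted p under 0.05. The 9 genes had limma adjusted p of 0.0677 to 0.344 there. edgeR called 11 genes and DESeq2 27 in this comparison.

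ENSOARG00000019246 had the most positive difference. It held 71.03, 48.48 and 143.3 at TR, from 44 to 118 reads, and 0, 0 and 0 at PRE. In the untreated animals, of which N6W lies in the other set of scaling, it was 0 to 2.558 at TR and 0 to 2.609 at PRE. The N22W muscles at TR thus stood apart from every other library of these times. The mean at TR was 87.6 ± 49.5 (SD, n = 3), at least 78.4-fold higher than PRE when 3 reads over the 3 PRE libraries are taken as the limit. The log2 change in N22W was 6.32 (SE 0.82, limma adjusted p = 0.000229) and passed under each of the 14 alternatives. Its difference from the untreated animals was 5.72 (SE 1.00, limma adjusted p = 0.0195). Over the 19 alternatives run on that difference it did not pass in 12, among them edgeR and DESeq2 (adjusted p = 0.0878). Nor did it pass in limma in the PRE and TR libraries alone (adjusted p = 0.0763) or without any 1 of the 3 N22W animals (0.101 to 0.161). In edgeR the difference was larger, at 7.67, yet its unadjusted p was 0.9998, while DESeq2 had an unadjusted p of 0.000272 on the same reads. The edgeR p of this gene, at 0 reads in many libraries, may not measure its difference, and the reason was not tested. Against CONTROL alone the difference was 5.54 (adjusted p = 0.116).

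ENSOARG00000003424 had the most negative difference. It was at 15.05, 27.54 and 20.09 at TR and at 65.3, 76.37 and 28.25 at PRE in N22W, without overlap between the groups. The log2 change was −1.32 (SE 0.38, limma adjusted p = 0.0186), against 1.53 in CONTROL (adjusted p = 0.0132), and N6W had 1.27 (adjusted p = 0.0432). By animal the change was −2.05, −1.44 and −0.47 in N22W and between 0.76 and 1.84 in the 6 untreated animals. The difference of −2.72 (SE 0.46, limma adjusted p = 0.0195) did not pass in 8 of 19 alternatives, among them the PRE and TR libraries alone (adjusted p = 0.108) and without 2913 (−2.35, adjusted p = 0.192). Leaving out 2913 ended the call of the fall in N22W (−0.96, adjusted p = 0.207), as did leaving out 2914 (−1.26, adjusted p = 0.0868) or the animal term (adjusted p = 0.0835). Against CONTROL alone the difference was −2.85 (limma adjusted p = 0.0677), and it passed in edgeR (adjusted p = 0.0186), in DESeq2 (6.65e-05) and without 2915 (0.0145).

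The same animals were sampled again 6 weeks after repair, in the operated muscle (END) and in the muscle of the other side (END-CC). These libraries belong to the other set of scaling, so they were compared only with each other. The genes that had risen over release were mostly higher in the operated muscle: the median log2 difference of END against END-CC over the 863 genes was 0.49, with 90.7% above 0, and 0.45, 0.53 and 0.48 in 2913, 2914 and 2915. The 1901 genes that had fallen had a median of −0.27, with 89.6% below 0, and −0.20, −0.27 and −0.33 by animal. Over all genes tested the median was 0.05, with 55.0% above 0. The END libraries entered the choice of the genes through the estimate of the spread.

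By size these differences were less than those over release, where the medians were 1.21 and −0.59, but the release medians come from the libraries that chose the genes. Animal 2914, with the smallest release change of the 3, had the largest median among the risen genes at END in the deposited scaling. After TMM scaling its median was 0.499, against 0.501 in 2915 and 0.438 in 2913. In the test of END against END-CC, 135 genes were higher (0.822%) and 128 lower (0.78%), 263 in all (1.6%). Of the higher ones, 71 had risen over release, 52.6% of the END list and 8.23% of the release list. Of the lower ones, 81 had fallen over release, 63.3% and 4.26%, and 1 gene was called in opposite directions.

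ENSOARG00000019246 was still higher in the operated muscle of N22W, at 58.29, 62.77 and 63.39 in END and 11.55, 3.282 and 0 in END-CC (log2 difference 4.05, limma adjusted p = 0.0228). ENSOARG00000003744 was at 1039, 795.6 and 640.7 in END and 211.8, 70.57 and 47.95 in END-CC, without overlap, a log2 difference of 3.16 that did not pass (limma adjusted p = 0.0624). ENSOARG00000014005 was at 385.7, 319 and 266.1 in END and 509.5, 388.1 and 576.3 in END-CC, with a log2 difference of −0.60 (limma adjusted p = 0.448). Its highest END value lay just under its lowest END-CC value. ENSOARG00000003424 had a log2 difference of −0.02 between the sides, but the animals did not share a direction, at −1.14, −0.29 and 1.37 in 2913, 2914 and 2915.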

How the data were processed

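The deposited files hold 1 signal value per gene for each library. Their unit, and the tool that counted reads, were not given in the sources used here. Per the labels' protocols, stranded total RNA libraries were made from 1 µg of RNA with a RIN of at least 7.0, after depletion of ribosomal RNA with human probes. Tools named in the submitters' processing notes are R 3.0.2 and STAR 2.3.0e, and the assembly named is Oar v3.1.

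Values up to 100 reads were whole multiples (within 0.1) of 1 step per library, so reads were recovered as values divided by the step. The geometric mean of these factors was 1.00 in the 12 libraries scaled together and in the other 24, and the deposited scaling was kept.

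Limma 3.58.1 (R 4.3.3, mean-dependent prior) was fitted to log2(value + 1) of 16417 genes whose median reached 0.5, over all 36 libraries with animal as a block. Two-sided p-values were Benjamini-Hochberg adjusted. The filter left out 8780 genes, 335 of them with a mean of at least 10 in the 6 libraries. Alternatives were edgeR 4.0.16 (quasi-likelihood) and DESeq2 1.42.0 on recovered reads, TMM scaling, other filters, fewer libraries and each animal left out. The limma fit was tested on simulated data. The animals pair the libraries by design; PRE and TR deviations of the same animal correlated at 0.06 to 0.31. Libraries of a group were not copies of each other (chi-square per gene of 39.9 to 156 in N22W, where copies lie near 1).

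Genes were named by rule: the largest log2 change and the largest difference in mean value in either direction, among called genes with the same direction in 3 of 3 animals and a mean of at least 10, and the extremes of the difference from untreated animals. The libraries, rules and lists were chosen with earlier results of these data known. Planned gene lists and cell type markers could not be used, since 0 of 25197 identifiers matched any of the 35057 entries of the name table.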

Additional observations from a re-analysis of the deposited data

Results flagged for a closer look

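Among the 6 untreated animals, 2909 of N6W stood apart from the others in the SD of its log2 changes from PRE to TR, at 0.697, against 0.483 to 0.553 in the other 5. Chance marks about 1 in 20 such groups in this way. In 9 genes the release change of N22W was unlike that of the untreated animals by the test of the difference itself. ENSOARG00000019246 differed by 5.72 on the log2 scale, and ENSOARG00000003424 by −2.72. Without 2909 the count was 27, and without 2913 it was 0. In that last fit 776 genes had an unadjusted limma p under 0.05, less than the share of 0.05 expected with no difference.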

How the results depend on the processing

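The 2764 genes called for release in N22W became 711 with the spread from the 6 libraries alone, 1454 with PRE and TR libraries of all arms, and 381 to 2549 with 1 animal left out, while 9 of the 14 alternatives stayed within 1.5 times. Without the replicate block by animal the counts were 1438 for the release, 1 in place of 9 for the difference from untreated animals and 0 for the difference from CONTROL. The 9 genes became 0 in the PRE and TR libraries alone, which are also the libraries compared, 36 in DESeq2, 5 with a pseudocount of 0.5, 17 with no filter and 0 to 27 with 1 animal left out. The count of 0 against CONTROL became 11 in edgeR, 27 in DESeq2, 15 with no filter and 0 to 4 with 1 animal left out. A fit of CONTROL and N22W alone gives no value for the untreated animals. The difference of 0.0378 in the SD of changes ran from −0.0293 to 0.117 with 1 animal left out, and was negative without 2913. The END median of 0.49 for risen genes was 0.58 over the genes called in the 12 libraries. ENSOARG00000004431 changed by 0.47 more in N22W than in untreated animals, and by −0.18 to 1.06 with 1 animal left out, negative without 2913. The cause of these shifts was not tested. Low genes are limited by depth, and 3 animals per arm limit every comparison.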

Other observations

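At END the other arms varied more than N22W in the gene with the largest rise over release. ENSOARG00000003744 was at 640.7 to 1039 in the 3 END libraries of N22W, at 9.892 to 2146 in those of CONTROL and at 210.7 to 6118 in those of N6W. In END-CC it was at 47.95 to 211.8 in N22W, 2.02 to 66.59 in CONTROL and 45.34 to 149.8 in N6W. ENSOARG00000019246 was at 58.29 to 63.39 in END of N22W, at 1.319 to 12.46 in END of CONTROL and at 2.737 to 91.43 in END of N6W. In 1 N6W animal it thus exceeded the N22W values, 6 weeks after repair and after the nandrolone of that arm had begun. These values were chosen after they had been seen, and no test was made of them.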
